A study of Mus musculus with 18 samples.

Results

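Lung iECs were compared with native lung endothelial cells (ECs) in bulk RNA sequencing of cultured mouse cells at day 7. The comparison rests on 3 libraries of lung iECs and 3 of lung ECs, chosen by their labels, out of 18 libraries in 6 groups of 3. It was made over the 14864 genes with enough counts to be tested, out of 35727 listed gene IDs. 3 further groups are used beside it: lung fibroblasts, labelled as controls, and heart iECs with their own native heart ECs. All groups, controls included, were grown in EGM2, a medium sold for endothelial cells, and all were taken at day 7. Besides the medium, the labels give tissue, cell type and day only. They name no strain, age, genotype, sorting step, transgene or promoter, and they do not say how the iECs were made. The term iEC is not spelled out there, nor is SEG, which stands in its place in the titles of the iEC libraries. The stated aim of the series was to see whether iECs take on the endothelial identity of their organ.

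Endothelial cells line vessels, hold together through VE-cadherin, claudin-5 and PECAM1, and sense growth factors through VEGF and angiopoietin receptors. SOX factors of the F group (Sox7, Sox17, Sox18) and ETS factors (Erg, Fli1, Ets1) are known regulators of endothelial genes. Arterial, venous, lymphatic and capillary endothelium differ in the sets of genes they express, and lung capillaries are known for carbonic anhydrase 4, the lipase anchor GPIHBP1 and the diaphragm protein PLVAP.

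The 6 lung iEC and lung EC libraries held 19108311 to 23775372 estimated counts, so that 1 count stood for at most 0.0523 per 1000000 counts before scaling. CPM below are counts per 1000000, scaled by library composition. CPM can be compared between groups for 1 gene but not between genes, since they are not divided by transcript length. Mean root mean square distances on the log2(CPM + 1) scale were 0.859 from lung iECs to lung ECs, 0.914 from lung iECs to fibroblasts and 1.08 from lung ECs to fibroblasts. Libraries of 1 group lay 0.335 (lung iECs), 0.369 (lung ECs) and 0.336 (fibroblasts) apart. Within each of the compared groups the library numbered 3 stood farthest from its group: Pearson's r across genes was 0.993 between lung iEC 1 and 2 but 0.990 and 0.984 with lung iEC 3, and 0.994 between lung EC 1 and 2 but 0.984 and 0.982 with lung EC 3. No label states whether the 3 libraries of a group came from separate cultures or animals. The p-values given here therefore reflect only the spread among libraries within groups, and that spread may be technical. It was estimated over all 18 libraries, not only the 6 compared, and within heart iECs and heart ECs r was 0.994 to 0.996. In bulk RNA, fewer cells of a type and less RNA per cell cannot be told apart.

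Lung iECs had Sox17, Erg, Kdr, Gja5 and matrix genes above lung ECs, and most other endothelial genes below them. The 2 groups did not overlap in 7829 genes (52.7%). Of the 14864 genes tested, 6715 (45.2%) differed between lung iECs and lung ECs, with 3296 (22.2%) higher and 3419 (23%) lower, by edgeR's quasi-likelihood test at a Benjamini-Hochberg adjusted p under 0.05. With at least a 2-fold change added, 1252 (8.42%) were higher and 1346 (9.06%) lower. The median log2 change over all tested genes was −0.01. With so many genes called, each count for a gene list below is to be read against 22.2% higher and 23% lower. Log2 changes are lung iEC over lung EC. The value after ± is an approximate standard error, worked back from the change and the statistic of edgeR's test. For genes with few counts in a group it can be smaller than counting error alone. Each named gene said to be higher or lower than in lung ECs passed this test, and, except Klf2, passed it also with any 1 of the 6 libraries left out.

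**Figure D1:**
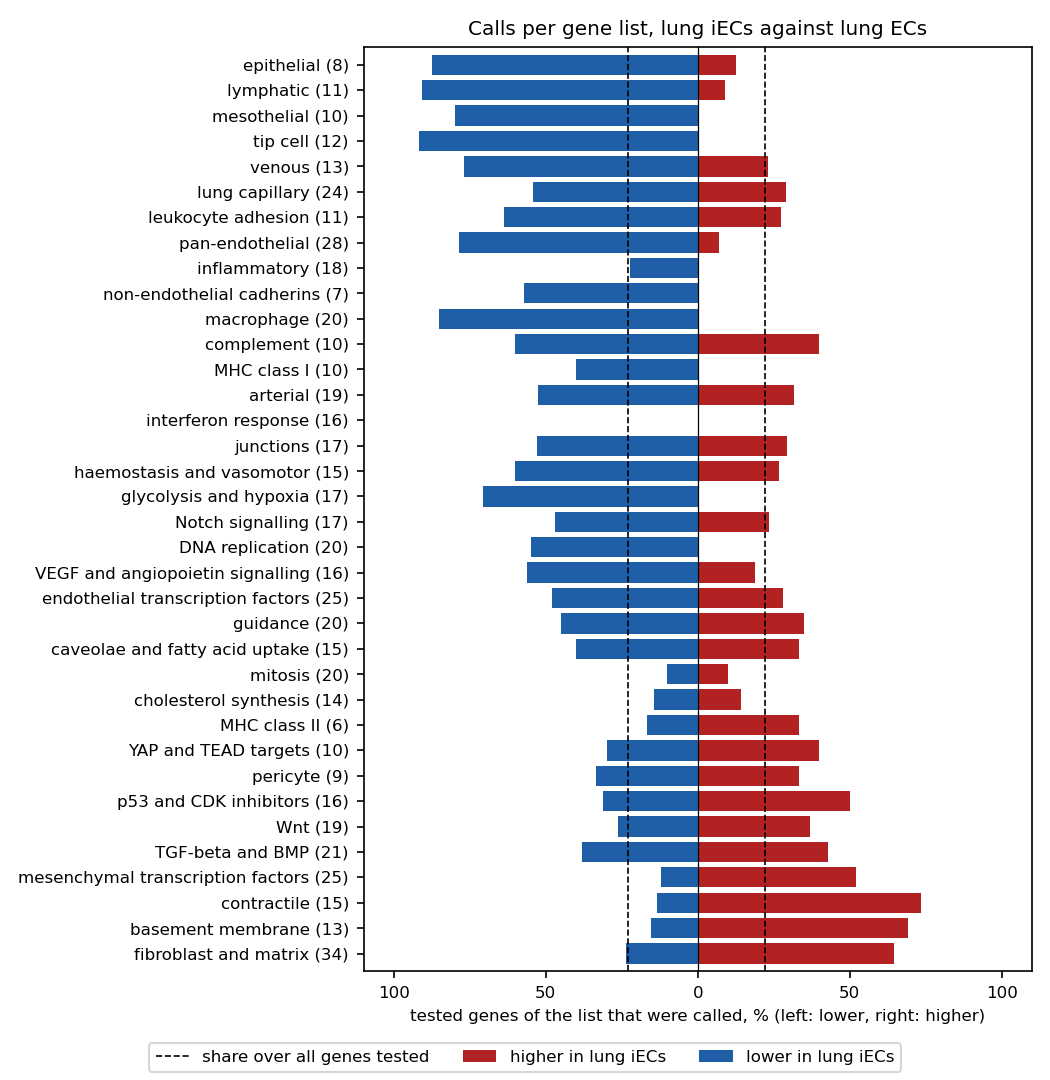
Percentage of the tested members of each gene list (at least 6 tested) called higher (right) or lower (left) in lung iECs than in lung ECs, with the number of tested members in parentheses and lists ordered by median log2 change (lowest at the top). Dashed lines mark the shares over all tested genes (22.2% higher, 23% lower): tip cell, lymphatic, macrophage and pan-endothelial lists lie far past the line on the lower side, and contractile, basement membrane and matrix lists past it on the higher side.

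Sox17 and Erg stood far above the native level. Sox17 (ENSMUSG00000025902, chromosome 1, 4490931 to 4497354, minus strand, GRCm38), a SOX factor of arterial endothelium, had 433, 429.8 and 562 CPM in lung iECs, against 13.4, 12.6 and 16.7 CPM in lung ECs and 0.0573 to 0.226 CPM in lung fibroblasts. Every lung iEC library lay above every lung EC library, a fitted 33.4-fold difference (log2 change 5.06 ± 0.149, edgeR adjusted p = 1.84e-14). Erg (ENSMUSG00000040732, chromosome 16, 95359169 to 95586593, minus strand), an ETS factor that endothelial cells need to keep their identity, had 959, 956 and 1187 CPM in lung iECs, against 88.1, 80.2 and 88.3 CPM in lung ECs and 0.172 to 1.05 CPM in lung fibroblasts. The groups again did not overlap (log2 change 3.60 ± 0.175, edgeR adjusted p = 4.34e-11). The table gives 1 value per gene, whatever gene copy its transcripts come from.

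Most other endothelial transcription factors did not follow these 2 genes. Of the 25 tested members of the list, which includes Sox17 and Erg, 7 were higher and 12 lower, with a median log2 change of −0.18. Tal1, which acts with Lmo2 in blood and endothelial development, was all but absent from lung iECs: it had 0.0474, 0 and 0 CPM in lung iECs, against 16, 13.8 and 13.3 CPM in lung ECs and 0 to 0.172 CPM in lung fibroblasts. The 3 lung iEC libraries held 1 count together and the lung EC libraries 985, a ratio of 928 in favour of lung ECs with an exact 95% interval of 166 to 36696 for counting error. Sox18, the SOX factor of lymphatic and venous endothelium, had 0.19, 0.215 and 0.193 CPM in lung iECs, against 32, 38.5 and 41.9 CPM in lung ECs and 0.0903 to 0.229 CPM in lung fibroblasts. Its relative Sox7 had 1.09, 1.5 and 1.35 CPM in lung iECs, against 44.8, 46.8 and 30.5 CPM in lung ECs and 0.671 to 1.4 CPM in lung fibroblasts. For both genes the lung iEC libraries overlapped with lung fibroblasts, from which they differed by 0.57 ± 0.458 (Sox18) and 0.39 ± 0.275 (Sox7) on the log2 scale, neither called. Against lung ECs, the log2 change was −7.51 ± 0.218 for Sox18 and −4.94 ± 0.211 for Sox7 (largest edgeR adjusted p = 1.96e-12). Meox1, a homeobox gene, had 0.285, 0.559 and 0.386 CPM in lung iECs, against 30.8, 32.8 and 24.4 CPM in lung ECs (log2 change −6.13 ± 0.303, edgeR adjusted p = 1.35e-11). Its relative Meox2 stood the other way round, with 7.3, 8.04 and 7.67 CPM in lung iECs, against 0.195, 0.326 and 0.417 CPM in lung ECs and 4.78 to 6.28 CPM in lung fibroblasts (log2 change 4.57 ± 0.224, edgeR adjusted p = 1.23e-11). Lung iECs and lung fibroblasts were both far above lung ECs for Meox2. Between these extremes Fli1, an ETS factor, had 11.4, 10.6 and 12.2 CPM in lung iECs, against 43, 36.5 and 45.1 CPM in lung ECs and 2.35 to 3.79 CPM in lung fibroblasts. Hhex, a homeobox gene of early endothelium, had 10.1, 9.71 and 8.3 CPM in lung iECs, against 21, 18 and 19.7 CPM in lung ECs and 0.226 to 0.91 CPM in lung fibroblasts. For both genes the lung iEC libraries lay between the other groups without overlap. Lmo2 had 38, 34.1 and 43 CPM in lung iECs, against 45.1, 46.7 and 36.6 CPM in lung ECs, with overlapping groups (log2 change −0.16 ± 0.144, edgeR adjusted p = 0.399). Higher members besides Sox17, Erg and Meox2 were Mecom at 1.61 ± 0.122, Epas1, the hypoxia factor HIF-2 alpha, at 0.79 ± 0.112 and the venous factor Nr2f2 at 0.33 ± 0.0668, together with the shear stress factor Klf2 at 0.52 ± 0.161, whose call did not hold with every single library left out (largest edgeR adjusted p = 0.0135). The haematopoietic and endothelial factor Lyl1 was lower, at −1.95 ± 0.329.

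**Figure D2:**
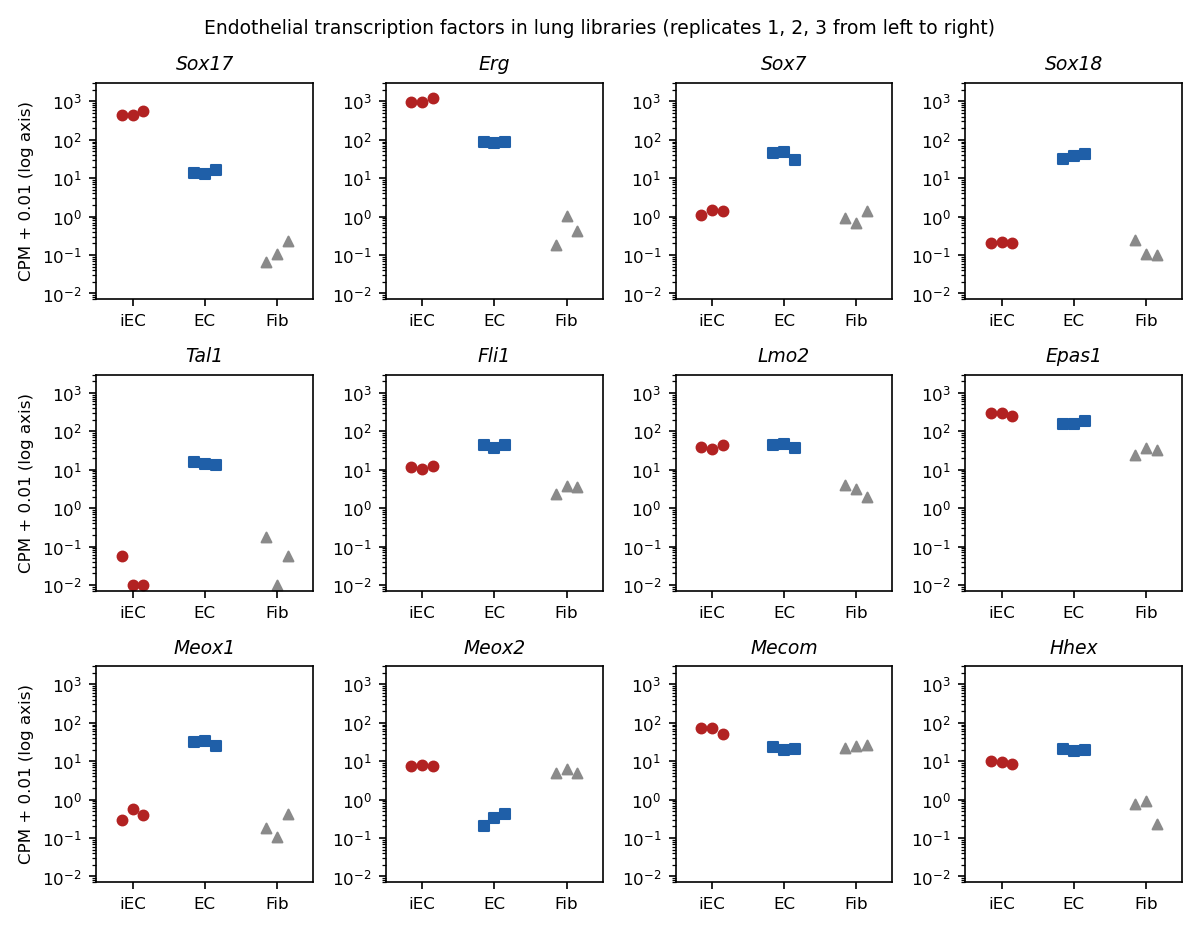
CPM plus 0.01 on a log axis for 12 endothelial transcription factors in the 3 lung iEC, 3 lung EC and 3 lung fibroblast (Fib) libraries, 1 point per library. Sox17 and Erg lie highest in lung iECs, Sox7, Sox18, Tal1 and Meox1 lie in lung iECs near the lung fibroblast libraries, and Fli1 and Hhex lie between lung ECs and lung fibroblasts.

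Genes common to all endothelium were lower in lung iECs as a rule but ranged from above the native level to levels near or below those of fibroblasts. Of 28 pan-endothelial genes, all tested, 22 were lower and 2 higher than in lung ECs, with a median log2 change of −1.56. Against lung fibroblasts 22 of the 28 were higher and 1 lower, where 50.6% of all genes differed, 25.9% higher and 24.7% lower. Both comparisons use the same lung iEC libraries. Together the 28 genes made up 0.232%, 0.244% and 0.245% of counts in lung iECs, against 0.535%, 0.511% and 0.565% in lung ECs and 0.0264%, 0.0268% and 0.0266% in lung fibroblasts. The lung iEC share lay below every lung EC library and above every lung fibroblast library (lung iEC against lung EC, exact two-sided permutation p = 0.1, the smallest that 3 against 3 libraries allow, and 0.143 after adjustment over 10 marker lists).

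Above the native level stood Kdr, the main VEGF receptor of endothelium, with 254, 296 and 265 CPM in lung iECs, against 71, 71 and 91.7 CPM in lung ECs and 6.13 to 9.73 CPM in lung fibroblasts. No lung iEC library overlapped with a lung EC library (log2 change 1.80 ± 0.122, edgeR adjusted p = 1.15e-09). Ecscr, a surface protein of endothelial cells, had 131, 139 and 156 CPM in lung iECs, against 81.7, 81.2 and 74.2 CPM in lung ECs (log2 change 0.84 ± 0.145, edgeR adjusted p = 0.000133). Close to the native level was Mcam, with 168, 182 and 138 CPM in lung iECs, against 162, 154 and 168 CPM in lung ECs. The sphingosine 1-phosphate receptor gene S1pr1 had 205, 208 and 252 CPM in lung iECs, against 205, 213 and 170.2 CPM in lung ECs. Their groups overlapped, and neither was called, with log2 changes of 0.01 ± 0.131 and 0.18 ± 0.124 (largest edgeR adjusted p = 0.953). Ptprb, the phosphatase of VE-cadherin and Tie2, was not called either (log2 change −0.24 ± 0.105, edgeR adjusted p = 0.0708). Flt1, the decoy VEGF receptor, had 82.8, 50.7 and 58.3 CPM in lung iECs, against 82.8, 73.5 and 68.2 CPM in lung ECs and 61.5 to 62.9 CPM in lung fibroblasts. All 3 groups overlapped, and the log2 changes of lung iECs were −0.23 ± 0.141 against lung ECs and 0.04 ± 0.142 against lung fibroblasts (edgeR adjusted p = 0.206 and 0.845).

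A second set lay below lung ECs but far above lung fibroblasts. Cdh5, which encodes VE-cadherin, had 444, 454 and 498 CPM in lung iECs, against 1016, 1021 and 960.4 CPM in lung ECs and 2.23 to 3.88 CPM in lung fibroblasts. It fell by 1.10 ± 0.112 against lung ECs and was higher by 7.18 on the log2 scale against lung fibroblasts (edgeR adjusted p = 2.51e-07 and 1.6e-16). The sialomucin gene Emcn had 203, 237 and 244 CPM in lung iECs, against 447, 384 and 409 CPM in lung ECs and 0.623 to 1.04 CPM in lung fibroblasts (log2 change −0.86 ± 0.0999, edgeR adjusted p = 1.37e-06). Tie1, an orphan receptor that acts with Tie2, had 82.5, 91.8 and 78.9 CPM in lung iECs, against 227, 244 and 253 CPM in lung ECs and 0.458 to 0.722 CPM in lung fibroblasts (log2 change −1.51 ± 0.0937, edgeR adjusted p = 2.91e-10). Tek, which encodes Tie2 itself, was lower at −1.66 ± 0.121, Esam, a junctional adhesion molecule, at −1.41 ± 0.12 and the guidance receptor gene Robo4 at −3.17 ± 0.21 (largest edgeR adjusted p = 2.51e-08). In all 6 genes each lung iEC library lay between the lung EC and the lung fibroblast libraries.

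Another set was lower than in lung ECs by more than 4 on the log2 scale, with levels in lung iECs from below to a few times those of lung fibroblasts. Pecam1 (CD31), the junction molecule most used to sort endothelial cells, had 7.78, 7.52 and 6.08 CPM in lung iECs, against 583, 546 and 557 CPM in lung ECs and 1.72 to 2.3 CPM in lung fibroblasts. It was lower by a fitted 78.7-fold, and no library overlapped (log2 change −6.30 ± 0.113, edgeR adjusted p = 2.83e-17). Vwf, the clotting factor stored in endothelial granules, had 4.41, 3.65 and 3.14 CPM in lung iECs, against 206, 185 and 193 CPM in lung ECs and 1.62 to 2.25 CPM in lung fibroblasts (log2 change −5.70 ± 0.158, edgeR adjusted p = 9.23e-15). Cldn5, the tight junction claudin of endothelium, had 0.19, 0.816 and 0.241 CPM in lung iECs, against 45.4, 54.5 and 64.6 CPM in lung ECs and 0.287 to 0.573 CPM in lung fibroblasts (log2 change −6.98 ± 0.267, edgeR adjusted p = 5.17e-13). Its lung iEC and lung fibroblast libraries overlapped. Mmrn2, an extracellular ligand of CD93 and CLEC14A, had 0.0949, 0.301 and 0.675 CPM in lung iECs, against 185, 186 and 155 CPM in lung ECs and 0.0479 to 0.542 CPM in lung fibroblasts (log2 change −8.93 ± 0.295, edgeR adjusted p = 8.63e-13), and its lung iEC and lung fibroblast libraries overlapped. Cd34, a sialomucin of endothelium and of many fibroblasts, had 2.04, 1.98 and 1.93 CPM in lung iECs, against 80.3, 64 and 81.2 CPM in lung ECs and 21.9 to 26.2 CPM in lung fibroblasts, with lung iECs below both other cell types (log2 change −5.24 ± 0.116, edgeR adjusted p = 6.39e-16). Nos3, the endothelial nitric oxide synthase, had 0.474, 0.43 and 0.289 CPM in lung iECs, against 7.69, 9.09 and 8.8 CPM in lung ECs (log2 change −4.40 ± 0.362, edgeR adjusted p = 1.66e-08).

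**Figure D3:**
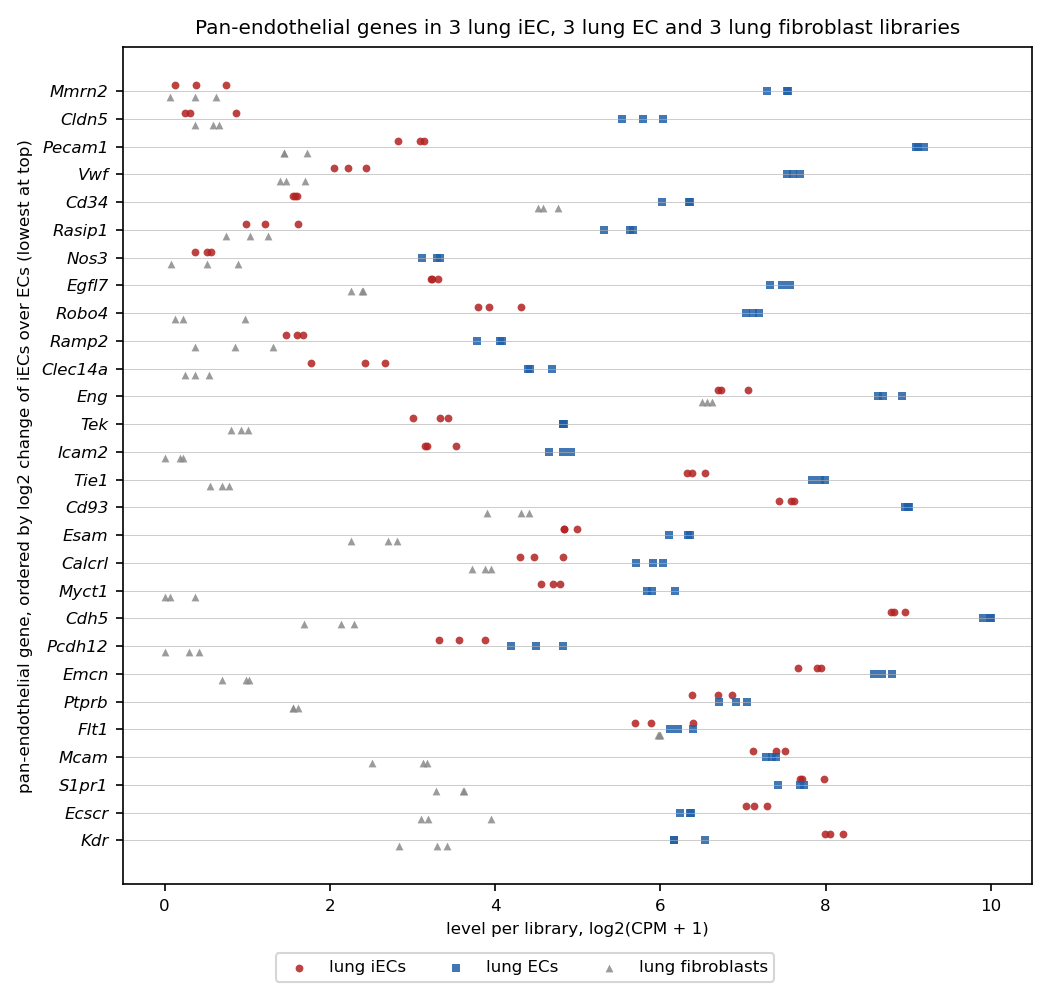
Levels of the 28 pan-endothelial genes, as log2(CPM + 1), in each lung iEC (circles), lung EC (squares) and lung fibroblast (triangles) library, with genes ordered by the log2 change of lung iECs over lung ECs (lowest at the top). From Mmrn2 and Cldn5 down to Nos3 the lung iEC points lie far left of the lung EC points, from Tek to Emcn they lie between lung ECs and lung fibroblasts, and at Kdr and Ecscr they lie right of lung ECs.

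Sequence upstream of the start site is shown for the 2 most raised and 2 most lowered called genes of the pan-endothelial and arterial lists with a single promoter in the RefSeq table (GRCm38.p6) and no more than a few bases of annotated exon in it. Capitals mark AGGAAG or its complement CTTCCT, a longer form of the GGAA core that ETS factors bind, and ACAAT or its complement ATTGT, a core that SOX factors bind. GGAA outside AGGAAG was neither marked nor counted. Both strands were searched, and matches of the 2 motifs cannot overlap. Each is given in the direction of the gene and ends at its start site, or at the first base of an annotated exon. The higher genes are Gja5 (chr3:97032152-97032401, plus strand) and Kdr (chr5:75978459-75978705, minus strand), and the lower genes are Cldn5 (chr16:18776597-18776846, plus strand) and Cd34 (chr1:194938571-194938818, plus strand).
Gja5: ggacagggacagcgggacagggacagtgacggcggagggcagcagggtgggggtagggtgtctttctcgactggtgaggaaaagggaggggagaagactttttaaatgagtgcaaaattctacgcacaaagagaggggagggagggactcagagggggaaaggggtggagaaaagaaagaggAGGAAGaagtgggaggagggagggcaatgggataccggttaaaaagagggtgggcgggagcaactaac
Kdr: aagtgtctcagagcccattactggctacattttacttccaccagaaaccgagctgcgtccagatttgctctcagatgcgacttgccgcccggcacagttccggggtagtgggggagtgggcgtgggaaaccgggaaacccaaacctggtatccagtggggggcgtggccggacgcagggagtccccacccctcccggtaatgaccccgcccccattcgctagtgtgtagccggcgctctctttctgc
Cldn5: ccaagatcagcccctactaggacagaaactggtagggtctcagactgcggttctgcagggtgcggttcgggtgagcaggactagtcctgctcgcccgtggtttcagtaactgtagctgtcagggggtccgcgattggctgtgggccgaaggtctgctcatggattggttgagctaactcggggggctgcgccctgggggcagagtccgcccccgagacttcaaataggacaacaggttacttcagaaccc
Cd34: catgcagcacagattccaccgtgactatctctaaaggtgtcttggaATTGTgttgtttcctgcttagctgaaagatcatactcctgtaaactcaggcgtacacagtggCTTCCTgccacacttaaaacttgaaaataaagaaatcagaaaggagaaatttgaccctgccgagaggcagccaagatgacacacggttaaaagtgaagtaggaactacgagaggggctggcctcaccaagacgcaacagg
The Gja5 window held AGGAAG once, the Cd34 window held each motif once, and the Kdr and Cldn5 windows held neither. Over all 32851 promoter windows of 250 bases in the table, 29.5% held AGGAAG and 27.7% ACAAT. Of the 6 windows of raised genes of the lists, 2 held AGGAAG and 2 ACAAT, and of the 24 windows of lowered genes 11 held AGGAAG and 10 ACAAT. A match is a run of letters and not a bound site, and no binding was measured here.

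Arterial genes were divided. Of 19 tested, 6 were higher and 10 lower than in lung ECs, with a median log2 change of −0.52, and 16 were higher and 2 lower than in lung fibroblasts. Gja5, the connexin 40 gene of arterial endothelium, had 108, 112 and 88.8 CPM in lung iECs, against 4.48, 5.26 and 6.5 CPM in lung ECs and 0.115 to 0.767 CPM in lung fibroblasts. Lung iECs were highest in every library (log2 change 4.24 ± 0.21, edgeR adjusted p = 1.24e-10). Hey1, a Notch target, had 21.2, 24.2 and 17.8 CPM in lung iECs, against 2.24, 1.96 and 2.79 CPM in lung ECs and 0.497 to 1.15 CPM in lung fibroblasts (log2 change 3.18 ± 0.273, edgeR adjusted p = 9.74e-08). Nrp1, a VEGF and semaphorin co-receptor, had 275, 306 and 248 CPM in lung iECs, against 80.8, 79.4 and 121 CPM in lung ECs and a mean of 197 CPM in lung fibroblasts (log2 change 1.56 ± 0.19, edgeR adjusted p = 5.87e-06). The ligand genes Cxcl12, Efnb2 and Jag1 averaged 151, 150 and 149 CPM in lung iECs. Their means in lung fibroblasts were 575, 45.6 and 20.7 CPM, so that Cxcl12 was highest in lung fibroblasts. Against lung ECs their increases were smaller, with Cxcl12 at 0.54 ± 0.102, Efnb2 at 0.45 ± 0.0934 and Jag1 at 0.44 ± 0.123 (largest edgeR adjusted p = 0.00734). Cxcr4, the receptor of Cxcl12, went the other way with 5.88, 7.52 and 3.28 CPM in lung iECs, against 76, 70.9 and 79 CPM in lung ECs and 1.58 to 1.66 CPM in lung fibroblasts (log2 change −3.75 ± 0.187, edgeR adjusted p = 2.12e-11), which left it above the fibroblast libraries. Dll4, the Notch ligand of arteries and tip cells, had 8.44, 8.59 and 7.72 CPM in lung iECs, against 26.5, 33.1 and 29.5 CPM in lung ECs and 0.226 to 0.24 CPM in lung fibroblasts (log2 change −1.85 ± 0.133, edgeR adjusted p = 2.62e-09). Depp1, a FOXO target, had 0.0949, 0.043 and 0.386 CPM in lung iECs, against 24.9, 29.5 and 22.4 CPM in lung ECs (log2 change −7.19 ± 0.372, edgeR adjusted p = 2.57e-11). Jag2 was lower at −1.40 ± 0.316 and Notch4 at −0.95 ± 0.0875.

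Among 17 Notch pathway genes 4 were higher and 8 lower. The targets Hey1 and Heyl were higher, Heyl with 7.92, 6.57 and 2.75 CPM in lung iECs, against 1.27, 1.06 and 2.54 CPM in lung ECs (log2 change 1.82 ± 0.366, edgeR adjusted p = 0.000817). So was the receptor gene Notch3, known from mural cells, at 1.16 ± 0.213. The target Nrarp was lower at −4.63 ± 0.332, the glycosyltransferase gene Mfng at −4.77 ± 0.437 and its relative Lfng at −0.99 ± 0.264 (largest edgeR adjusted p = 0.00554). The receptor gene Notch1 was not called (log2 change −0.12 ± 0.103, edgeR adjusted p = 0.346). VEGF and angiopoietin genes were lower in 9 of 16 cases and higher in 3. Angpt2, the Tie2 antagonist stored in endothelial granules, had 13.6, 14.4 and 10.8 CPM in lung iECs, against 1029, 998 and 901 CPM in lung ECs and 7.9 to 10.8 CPM in lung fibroblasts (log2 change −6.23 ± 0.163, edgeR adjusted p = 4.97e-15), with lung iECs just above lung fibroblasts. Flt4, the receptor of VEGF-C, was lower at −1.58 ± 0.107 and Nrp2, its co-receptor, at −1.73 ± 0.127 (largest edgeR adjusted p = 4.03e-09).

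Tip cell genes, which mark the leading cells of sprouts, were lower in 11 of 12 cases and higher in none, with a median log2 change of −2.49. Apln, the ligand apelin, had 8.68, 8.08 and 7.82 CPM in lung iECs, against 240.1, 229 and 266 CPM in lung ECs and 14.1 to 17.9 CPM in lung fibroblasts, so that lung iECs lay below lung fibroblasts too (log2 change −4.90 ± 0.12, edgeR adjusted p = 1.72e-15). Esm1 (endocan) had 11.6, 12.9 and 11.3 CPM in lung iECs, against 175, 191 and 148 CPM in lung ECs and 2.49 to 4.81 CPM in lung fibroblasts (log2 change −3.84 ± 0.197, edgeR adjusted p = 1.1e-10), between the other groups. The chemokine receptor gene Ackr3 was lower at −2.89 ± 0.145 and the pericyte attractant gene Pdgfb at −2.09 ± 0.105.

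Lung capillary genes were lower in 13 of 24 cases and higher in 7. Plvap, which forms the diaphragms of caveolae and fenestrae, had 0.901, 0.215 and 0.338 CPM in lung iECs, against 275, 281 and 288 CPM in lung ECs and 1.25 to 2.75 CPM in lung fibroblasts (log2 change −9.18 ± 0.29, edgeR adjusted p = 7.12e-13). Gpihbp1, the lipase anchor of capillaries, had 0.142, 0.043 and 0.0482 CPM in lung iECs, against 16.9, 14.5 and 22.3 CPM in lung ECs and 0.229 to 0.406 CPM in lung fibroblasts (log2 change −7.76 ± 0.339, edgeR adjusted p = 2.86e-12). In both genes every lung iEC library lay below the fibroblast libraries too. Cyp4b1 was lower at −4.77 ± 0.227 and Ly6c1, whose near-identical relatives can share reads with it, at −3.49 ± 0.193. The higher members were led by Ace, the angiotensin-converting enzyme of lung capillaries, with 707, 714 and 639.8 CPM in lung iECs, against 135, 112 and 154 CPM in lung ECs and 354 to 523 CPM in lung fibroblasts (log2 change 2.36 ± 0.127, edgeR adjusted p = 4.34e-11). Prx, Tbx2, Bmp6 and Fibin were higher by 1.75 ± 0.205, 1.54 ± 0.19, 1.48 ± 0.134 and 1.32 ± 0.104 (largest edgeR adjusted p = 3.57e-06). Ace, Tbx2, Fibin and Prx also stood at 449, 47.0, 77.3 and 10.2 CPM in lung fibroblasts, against 133, 10.2, 27.8 and 4.04 CPM in lung ECs (means). Bmp6 stood at 19.8 CPM in lung fibroblasts, below its mean of 40.0 CPM in lung ECs.

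Lymphatic genes were lower in 10 of 11 cases and higher in 1, which lost its call without any library but lung EC 2. Mmrn1, a secreted protein of lymphatic endothelium, had 1.61, 1.2 and 0.675 CPM in lung iECs, against 565, 476 and 535 CPM in lung ECs and 1.55 to 2.44 CPM in lung fibroblasts (log2 change −8.81 ± 0.227, edgeR adjusted p = 1.54e-14). Reln, which lymphatic endothelium secretes, had 0.759, 0.988 and 1.21 CPM in lung iECs, against 176, 161 and 233 CPM in lung ECs and 0.135 to 0.401 CPM in lung fibroblasts (log2 change −7.59 ± 0.222, edgeR adjusted p = 4.44e-14). Prox1, the factor that sets lymphatic identity, had 1.28, 2.28 and 1.59 CPM in lung iECs, against 42.7, 42.5 and 54.1 CPM in lung ECs and 0.229 to 1.44 CPM in lung fibroblasts (log2 change −4.74 ± 0.26, edgeR adjusted p = 1.02e-10). The hyaluronan receptor gene Lyve1 had 12.9, 17.1 and 13.4 CPM in lung iECs, against 388, 392 and 427 CPM in lung ECs and 3.09 to 4.78 CPM in lung fibroblasts (log2 change −4.79 ± 0.138, edgeR adjusted p = 1.29e-14). All 4 genes were high in each lung EC library and low in each lung iEC library. The 11 genes together held 0.0327%, 0.0342% and 0.0403% of counts in lung iECs, against 0.199%, 0.196% and 0.214% in lung ECs and 0.0401%, 0.0370% and 0.0377% in lung fibroblasts. Most of the fibroblast share was Pdpn, with means of 130 CPM in lung iECs, 277 CPM in lung ECs and 317 CPM in lung fibroblasts. Gene by gene, 7 of the 11 were higher and 2 lower than in lung fibroblasts, where 25.9% of all genes were higher and 24.7% lower. How many lymphatic cells the lung EC cultures held was not measured.

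Venous genes were lower in 10 of 13 cases and higher in 3. Selp, the P-selectin of endothelial granules and platelets, had 2.89, 1.07 and 12.4 CPM in lung iECs, against 918, 1009 and 336 CPM in lung ECs and 0.974 to 1.49 CPM in lung fibroblasts (log2 change −7.13 ± 0.692, edgeR adjusted p = 2.56e-06). Sele, E-selectin, had 1.28, 0.773 and 3.38 CPM in lung iECs, against 33.2, 29.1 and 6.96 CPM in lung ECs (log2 change −3.69 ± 0.554, edgeR adjusted p = 0.000104). In both selectin genes the library numbered 3 was the highest of the lung iECs and the lowest of the lung ECs, yet the groups did not overlap. The prostaglandin transporter gene Slco2a1 was lower at −3.08 ± 0.15 and Lrg1 at −4.17 ± 0.346. Adgrg6, an adhesion receptor, was higher at 1.86 ± 0.126 (edgeR adjusted p = 1.08e-09). Vcam1, a leukocyte adhesion molecule, was higher too, with 1154, 997 and 2172 CPM in lung iECs, against 756, 809 and 388 CPM in lung ECs (log2 change 1.15 ± 0.275, edgeR adjusted p = 0.00364). Among 11 leukocyte adhesion genes 7 were lower, among them Icam1 at −1.62 ± 0.334 and the podocalyxin gene Podxl at −2.14 ± 0.195, and 3 higher, with Cd99l2 at 0.44 ± 0.0795.

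Of 17 junction genes 9 were lower and 5 higher. Besides Cldn5, Cdh5 and Esam, the cingulin relative Cgnl1 was lower at −1.09 ± 0.117, whereas the scaffold gene Tjp1 (ZO-1) was higher at 0.67 ± 0.127, and the adhesion molecule gene Jam3 at 0.62 ± 0.0836 (largest edgeR adjusted p = 0.000303). Of 7 cadherins listed as non-endothelial 4 were lower and none higher, with Cdh13 (T-cadherin) at −1.40 ± 0.111 and Cdh6 at −1.33 ± 0.144. Despite the name of the list, Cdh13 and Cdh6 were far higher in lung ECs (means of 85.4 and 87.6 CPM) than in lung fibroblasts (1.07 and 2.51 CPM). Haemostasis and vasomotor genes were lower in 9 of 15 cases and higher in 4. Procr, the protein C receptor, was lower at −1.76 ± 0.166. Thbd, thrombomodulin, had 277, 328 and 268 CPM in lung iECs, against 117, 151 and 139.9 CPM in lung ECs (log2 change 1.10 ± 0.12, edgeR adjusted p = 6.21e-07), and the endothelin genes Edn1 and Ednrb (ligand and receptor) were higher at 0.53 ± 0.0713 and 1.24 ± 0.217. Of 15 caveolae and fatty acid genes 5 were higher and 6 lower. The coat genes Cav1, Cav2 and Cavin3 were higher at 1.74 ± 0.156, 0.88 ± 0.102 and 2.73 ± 0.144 (largest edgeR adjusted p = 1.35e-06), while the fatty acid genes Cd36 (a transporter), Lpl (lipoprotein lipase) and Pparg (a nuclear receptor) were lower at −1.53 ± 0.209, −2.17 ± 0.242 and −2.26 ± 0.197 (largest edgeR adjusted p = 1.81e-05). The fatty acid transporter genes Slc27a3 and Slc27a4 were higher at 0.86 ± 0.223 and 0.83 ± 0.0799, and the caveolar genes Cavin1, Cavin2 and Ehd2 were not called, at 0.02 ± 0.117, 0.08 ± 0.193 and −0.21 ± 0.145.

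Most matrix genes of fibroblasts stood above lung ECs, and most stood below lung fibroblasts. Of 34 tested, 22 were higher and 8 lower than in lung ECs, with a median log2 change of 0.98, while 2 were higher and 28 lower than in lung fibroblasts. Col1a1, the main fibrillar collagen chain, had 7002, 6515 and 5206 CPM in lung iECs, against 2359, 2668 and 3201 CPM in lung ECs and 12813 to 15361 CPM in lung fibroblasts (log2 change 1.19 ± 0.114, edgeR adjusted p = 1.25e-07). Col3a1 had 1189, 1082 and 681 CPM in lung iECs, against 357, 374 and 558 CPM in lung ECs and 9004 to 11512 CPM in lung fibroblasts (log2 change 1.2 ± 0.181, edgeR adjusted p = 4.77e-05), with each lung iEC library between the other groups. Fbln5, an elastic fibre protein, had 1588, 1851 and 1491 CPM in lung iECs, against 92.2, 74.4 and 139.8 CPM in lung ECs and 174 to 193 CPM in lung fibroblasts (log2 change 4.01 ± 0.168, edgeR adjusted p = 4.01e-12), far higher in lung iECs than in either other cell type. Col14a1, a collagen that sits on fibril surfaces, had 233, 189 and 92 CPM in lung iECs, against 17.1, 14 and 27.8 CPM in lung ECs (log2 change 3.12 ± 0.321, edgeR adjusted p = 2.65e-06). Mfap2 and Col6a3 were higher at 2.86 ± 0.173 and 1.93 ± 0.287. Among lower members was Dcn, the proteoglycan decorin, with 87.3, 81.6 and 186 CPM in lung iECs, against 618, 840.4 and 304 CPM in lung ECs (log2 change −2.31 ± 0.346, edgeR adjusted p = 9.65e-05). Also lower were Lum at −2.95 ± 0.454, the protease inhibitor gene Timp1 at −1.52 ± 0.22 and fibronectin, Fn1, at −0.48 ± 0.135 (edgeR adjusted p = 0.00739). As a share of all counts the list held 4.52%, 4.35% and 3.49% in lung iECs, against 3.23%, 3.21% and 3.62% in lung ECs and 7.31%, 9.23% and 8.86% in lung fibroblasts, so that lung iEC 3 lay within the lung EC range (exact two-sided permutation p = 0.2, adjusted 0.222).

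Of 13 basement membrane genes 9 were higher and 2 lower. Those higher included the laminin genes Lamb2 at 1.28 ± 0.109, Lama4 at 1.05 ± 0.114 and Lamc1 at 0.94 ± 0.0985 and the collagen gene Col15a1 at 1.49 ± 0.205 (largest edgeR adjusted p = 2.48e-05). Without lung iEC 3 or lung EC 2 none was lower, and without lung EC 3 or lung iEC 2 only 1. Of 15 contractile genes of smooth muscle 11 were higher and 2 lower. Acta2, smooth muscle actin, had 2139, 2439 and 1949 CPM in lung iECs, against 719.6, 573 and 980.2 CPM in lung ECs and 441 to 594 CPM in lung fibroblasts (log2 change 1.52 ± 0.182, edgeR adjusted p = 4.11e-06), highest in lung iECs. Cnn1, Myl9, Lmod1 and Actg2 were higher at 1.86 ± 0.352, 1.69 ± 0.227, 1.63 ± 0.232 and 1.55 ± 0.163, and the filament gene Des was lower at −1.46 ± 0.287 (largest edgeR adjusted p = 0.000765). Of 25 mesenchymal transcription factors 13 were higher and 3 lower than in lung ECs. Against lung fibroblasts 2 of them were higher and 14 lower, where 25.9% of all genes were higher and 24.7% lower. Osr1 had 116, 131 and 157 CPM in lung iECs, against 6.71, 4.93 and 11.7 CPM in lung ECs and 99.2 to 106 CPM in lung fibroblasts (log2 change 4.11 ± 0.24, edgeR adjusted p = 2.06e-09), at the fibroblast level in lung iECs. Tcf21, Twist1, Twist2 and the lung mesenchyme factor Tbx2 were higher at 1.55 ± 0.177, 1.37 ± 0.157, 1.36 ± 0.157 and 1.54 ± 0.19, and Hand2 and Runx1 were lower at −1.77 ± 0.116 and −0.65 ± 0.136.

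By fold, the 10 largest increases lay outside the endothelial lists. Sphkap, which encodes an anchor of protein kinase A, had 156, 182 and 177 CPM in lung iECs, against 0, 0 and 0 CPM in lung ECs and 0.0451 to 0.192 CPM in lung fibroblasts. No count was found in lung ECs, and against a floor of 3 counts over that group (0.0434 CPM) lung iECs were at least 3946-fold higher. Havcr1 (TIM-1, a kidney injury marker), Lrat (which stores retinol as esters), Lpo (lactoperoxidase) and Tecrl (a reductase of the heart) likewise had no count in lung ECs. They averaged 27.3, 23.8, 13.9 and 13.0 CPM in lung iECs and were at least 628-fold, 549-fold, 321-fold and 299.9-fold higher. The chemokine gene Ccl11 (eotaxin) had 975 counts in lung iECs and 1 in lung ECs, a ratio of 1035 with an exact 95% interval of 185 to 40912. Tmprss5, a membrane protease, had 56.8, 58 and 62 CPM in lung iECs, against 0, 0.0408 and 0.125 CPM in lung ECs. The BMP antagonist gene Chrdl1 had 35.6, 41.1 and 44.5 CPM in lung iECs, against 0.195, 0 and 0.0417 CPM in lung ECs. Magix and the lysine-degrading enzyme gene Aass were higher at 8.58 ± 0.271 and 7.10 ± 0.227. Of these 10 genes Aass, Ccl11 and Chrdl1 averaged 3.98, 1.46 and 1.24 CPM in lung fibroblasts, and the others at most 0.268 CPM. In absolute CPM, Col1a1, Col1a2, Sparc, Fbln5, Acta2 and the IGF carrier gene Igfbp3 gained most. Igfbp3 had 1487, 1560.3 and 1912 CPM in lung iECs, against 244, 286 and 209.7 CPM in lung ECs (log2 change 2.74 ± 0.123, edgeR adjusted p = 4.11e-12).

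The largest decreases, after the endothelial genes named above, included ion channel and immune genes. Scn3a, a voltage-gated sodium channel of neurons, had 0, 0 and 0.0482 CPM in lung iECs, against 99.9, 80.2 and 112 CPM in lung ECs. This was 1 count in lung iECs against 6704 in lung ECs, a ratio of 6317 in favour of lung ECs with an exact 95% interval of 1133 to 249542. The immune GTPase gene Gimap5 had no count in lung iECs and 14.6, 19.3 and 11.4 CPM in lung ECs, at least 328-fold lower in lung iECs, and Gimap4 held 3 counts against 1018. Crisp1, a secreted protein of the epididymis, held 1 count in lung iECs against 3621 in lung ECs, and the pregnancy-specific gene Psg22, whose family members are near copies, 2 against 1578. In absolute CPM, Lyz2, Fth1, Fn1, Chil3 and Ftl1 were among the genes that lost most. Lyz2, the lysozyme of macrophages, had 2604, 1823 and 3003 CPM in lung iECs, against 7366, 7865 and 6120.5 CPM in lung ECs and 811 to 1073 CPM in lung fibroblasts (log2 change −1.52 ± 0.185, edgeR adjusted p = 5.15e-06). Chil3, a chitinase-like protein of alveolar macrophages, had 451, 499 and 343 CPM in lung iECs, against 2916, 2152 and 3232 CPM in lung ECs and 377 to 446 CPM in lung fibroblasts (log2 change −2.68 ± 0.214, edgeR adjusted p = 6.53e-08). The ferritin chain gene Fth1 had 2141, 1571 and 2884 CPM in lung iECs, against 6789, 7937 and 4277 CPM in lung ECs (log2 change −1.53 ± 0.215, edgeR adjusted p = 3.19e-05).

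Signalling genes moved both ways within each pathway. Of 21 TGF-beta and BMP genes 9 were higher and 8 lower. The receptor gene Acvrl1 (ALK1), the target Id1 and the ligand gene Bmp6 were higher at 0.98 ± 0.0615, 1.03 ± 0.158 and 1.48 ± 0.134, while the co-receptor gene Eng (endoglin) and the ligand genes Bmp2, Bmp4 and Inhba were lower at −1.93 ± 0.0941, −2.87 ± 0.2, −1.15 ± 0.0969 and −0.90 ± 0.189 (largest edgeR adjusted p = 0.00115). Of 19 Wnt genes 7 were higher and 5 lower, and 3 lower without lung EC 3. The feedback target Axin2 had 10.4, 14.1 and 8.3 CPM in lung iECs, against 1.31, 0.856 and 2.21 CPM in lung ECs and 0.974 to 1.76 CPM in lung fibroblasts (log2 change 2.90 ± 0.358, edgeR adjusted p = 3.11e-06), highest in lung iECs. The ligand gene Wnt5a and the secreted inhibitor genes Dkk3 and Sfrp1 were higher at 0.95 ± 0.136, 2.02 ± 0.179 and 1.02 ± 0.137. Their means were 152, 111 and 41.9 CPM in lung iECs and 30.8, 438 and 489 CPM in lung fibroblasts. Dkk3 and Sfrp1 were thus highest in lung fibroblasts. The ligand gene Wnt2 and the receptor gene Fzd6 were lower than in lung ECs at −2.53 ± 0.362 and −1.47 ± 0.134. Of 20 guidance genes 7 were higher and 9 lower. Slit2, a ligand of Robo receptors, had 718, 755 and 566 CPM in lung iECs, against 53.6, 55 and 58.1 CPM in lung ECs (log2 change 3.61 ± 0.136, edgeR adjusted p = 3.79e-13). Its relative Slit3 had 433, 476 and 354 CPM in lung iECs, against 66.9, 72.2 and 82.3 CPM in lung ECs (log2 change 2.51 ± 0.147, edgeR adjusted p = 1.97e-10). Their receptor gene Robo1 was higher at 1.38 ± 0.129 while Robo4 was lower. The ephrin genes Efnb1 and Efna1 went apart, at 1.74 ± 0.15 and −2.38 ± 0.12. Of 10 YAP and TEAD targets 4 were higher and 3 lower, with Ccn1 at 0.60 ± 0.0817 and its relative Ccn2 at −0.65 ± 0.117.

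Growth and metabolism differed little for mitosis and more for glycolysis. Of 20 mitosis genes 2 were higher and 2 lower (1 lower without lung EC 2 or lung iEC 3), with Cdc20 at 1.08 ± 0.127 and the proliferation marker Mki67 at −0.79 ± 0.139 (largest edgeR adjusted p = 0.000142). Mki67 had 70.7, 59.6 and 45.5 CPM in lung iECs, against 108, 91.2 and 106 CPM in lung ECs. DNA replication genes were lower in 11 of 20 cases, but this count was 4 without lung EC 3, 5 without lung iEC 2 and 7 without lung EC 2 or without lung iEC 3. Glycolysis and hypoxia genes were lower in 12 of 17 cases and higher in none, with a median log2 change of −0.37. The hexokinase gene Hk1 had 121, 111 and 133 CPM in lung iECs, against 220.3, 234 and 203 CPM in lung ECs (log2 change −0.85 ± 0.0808, edgeR adjusted p = 1.06e-07), Hk2 was lower at −0.71 ± 0.146, pyruvate kinase Pkm at −0.59 ± 0.107 and the oxygen sensor Egln3 at −1.99 ± 0.215. Of 14 cholesterol synthesis genes 2 were higher and 2 lower, but 7 were higher without lung EC 3 and 1 without lung EC 1 or lung EC 2. Of 16 genes of p53 and CDK inhibition 8 were higher and 5 lower, or 3 lower without lung iEC 1. Cdkn1c and Cdkn1b, which encode p57 and p27, were higher at 1.65 ± 0.334 and 0.78 ± 0.1, and the p53 target Mdm2 was lower at −0.44 ± 0.0808.

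Inflammatory genes varied widely within both groups. The 18 genes of the list held 0.213%, 0.124% and 0.525% of counts in lung iECs, against 0.872%, 1.05% and 0.375% in lung ECs, so that lung iEC 3 lay above lung EC 3 and the groups overlapped (exact two-sided permutation p = 0.2, adjusted 0.222). The acute-phase gene Saa3 had 301, 22.5 and 858 CPM in lung iECs, against 2119.6, 3619 and 368 CPM in lung ECs and was not called (log2 change −2.37 ± 0.974, edgeR adjusted p = 0.0652). The neutrophil chemokine gene Cxcl5 had 13.2, 6.83 and 175 CPM in lung iECs, against 97.1, 135 and 6.67 CPM in lung ECs (log2 change −0.29 ± 1.02, edgeR adjusted p = 0.843). In both, the library numbered 3 was the highest of the lung iECs and the lowest of the lung ECs. Of 18 genes 4 were lower and none higher, and the count lower was 10 without lung EC 3 and 16 without lung iEC 3. Lcn2, which binds bacterial siderophores, had 12.8, 4.13 and 74.6 CPM in lung iECs, against 595, 990.2 and 151 CPM in lung ECs without overlap (log2 change −4.25 ± 0.916, edgeR adjusted p = 0.00213), the prostaglandin synthase gene Ptgs2 was lower at −1.67 ± 0.329 and the macrophage growth factor gene Csf1 at −1.02 ± 0.177. The 16 interferon response genes held 0.203%, 0.117% and 0.357% of counts in lung iECs, against 0.372%, 0.449% and 0.121% in lung ECs, with overlap (exact two-sided permutation p = 0.4, adjusted 0.4). None was called by edgeR, 1 was lower by DESeq2, and 5 were lower without lung EC 3 and 3 without lung iEC 3 (1 of the 16 at an unadjusted p under 0.05). MHC class I genes were lower in 4 of 10 cases, but in 7 without lung EC 3, in 8 without lung iEC 3, and in 2 without lung EC 1, lung EC 2 or lung iEC 1. Of 6 MHC class II genes 2 were higher (1 without lung EC 1) and 1 lower. H2-Aa had 5.12, 5.46 and 7.04 CPM in lung iECs, against 0.0973, 0 and 0.167 CPM in lung ECs (log2 change 5.98 ± 0.637, edgeR adjusted p = 1.11e-06), while its partner H2-Ab1 was at 0.03 ± 0.26 and not called. Of 10 complement genes 4 were higher and 6 lower. The C1 inhibitor gene Serping1 was higher at 1.97 ± 0.172, as were C1s1 and C1ra at 0.74 ± 0.134 and 0.98 ± 0.27, whereas C2 was lower at −1.32 ± 0.199. All 4 were highest in lung fibroblasts.

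Markers of other cell types moved with the comparison. Macrophage genes were lower in lung iECs in 17 of 20 cases and higher in none, and 1 was higher without lung EC 3. Against lung fibroblasts all 20 were higher. Adgre1, which encodes F4/80, had 117, 42.4 and 173 CPM in lung iECs, against 388, 515 and 210.3 CPM in lung ECs and 24.5 to 36.2 CPM in lung fibroblasts (log2 change −1.74 ± 0.423, edgeR adjusted p = 0.00451). Csf1r, the receptor macrophages need to survive, had 82.2, 69.6 and 71.5 CPM in lung iECs, against 164, 143 and 144 CPM in lung ECs and 20.4 to 24.4 CPM in lung fibroblasts (log2 change −1.01 ± 0.0917, edgeR adjusted p = 5.67e-08). The leukocyte gene Ptprc (CD45) had 38, 28.1 and 41.9 CPM in lung iECs, against 94.1, 76.1 and 67.7 CPM in lung ECs and 8.08 to 12.5 CPM in lung fibroblasts (log2 change −1.14 ± 0.188, edgeR adjusted p = 9.91e-05). In these 3 genes the lung iEC libraries lay between lung ECs and lung fibroblasts. The 20 genes held 0.364% to 0.507% of counts in lung iECs, against 1.05% to 1.18% in lung ECs and 0.135% to 0.172% in lung fibroblasts. Of other blood cells 3 genes could be tested. The platelet gene Itga2b was higher at 1.57 ± 0.407, while S100a8 (neutrophils) and Pf4 (platelets, and some macrophages) were lower at −3.30 ± 0.538 and −1.69 ± 0.197, and Cd3d, Nkg7, Gzma and Hba-a1 had no count in any of the 9 lung libraries, which allows up to 0.0461 CPM in lung iECs and 0.0434 CPM in lung ECs.

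Mesothelial genes were lower in 8 of 10 cases and held 0.00508% to 0.00716% of counts in lung iECs, against 0.0334% to 0.0518% in lung ECs and 0.0313% to 0.0333% in lung fibroblasts. Msln, mesothelin, had 3.13, 4.04 and 2.99 CPM in lung iECs, against 129, 144 and 199.7 CPM in lung ECs and 118 to 134 CPM in lung fibroblasts (log2 change −5.53 ± 0.237, edgeR adjusted p = 2.85e-11). Epithelial genes were lower in 7 of 8 cases and held 0.00136% to 0.00182% of counts in lung iECs, against 0.0177% to 0.0214% in lung ECs. The adhesion gene Epcam had 0.19, 0.0859 and 0.531 CPM in lung iECs, against 18.5, 17.4 and 15.6 CPM in lung ECs (log2 change −6.00 ± 0.514, edgeR adjusted p = 2.01e-06). Cldn4, a claudin of epithelium, had 0.617, 0.301 and 0.772 CPM in lung iECs, against 60.6, 56.3 and 63 CPM in lung ECs (log2 change −6.74 ± 0.267, edgeR adjusted p = 6.63e-12), and E-cadherin, Cdh1, was at −5.85 ± 0.256. The defining lung epithelial markers Sftpc, Scgb1a1 and Nkx2-1 were at or near 0 in the lung groups, with means of 0, 0.0158 and 0.0874 CPM in lung iECs against 0.620, 0.0417 and 0.480 CPM in lung ECs. Ager, known from alveolar type 1 cells, was the exception with 9.96, 10.8 and 14 CPM in lung iECs, against 0.633, 0.815 and 0.709 CPM in lung ECs (log2 change 3.99 ± 0.213, edgeR adjusted p = 3.97e-11). Of 9 pericyte genes 3 were higher (5 without lung iEC 3), with Pdgfrb at 0.93 ± 0.14 and Rgs5 at 1.42 ± 0.234, and 3 lower, with the channel gene Kcnj8 at −4.91 ± 0.39. The pericyte list held 0.0249% to 0.0398% of counts in lung iECs, against 0.0168% to 0.0228% in lung ECs and 0.0639% to 0.0745% in lung fibroblasts. Pdgfrb, which is also on the matrix list, averaged 209 CPM in lung iECs, 109 CPM in lung ECs and 554 CPM in lung fibroblasts. The part of these cell types in the differences between lung iECs and lung ECs was not tested.

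**Figure D4:**
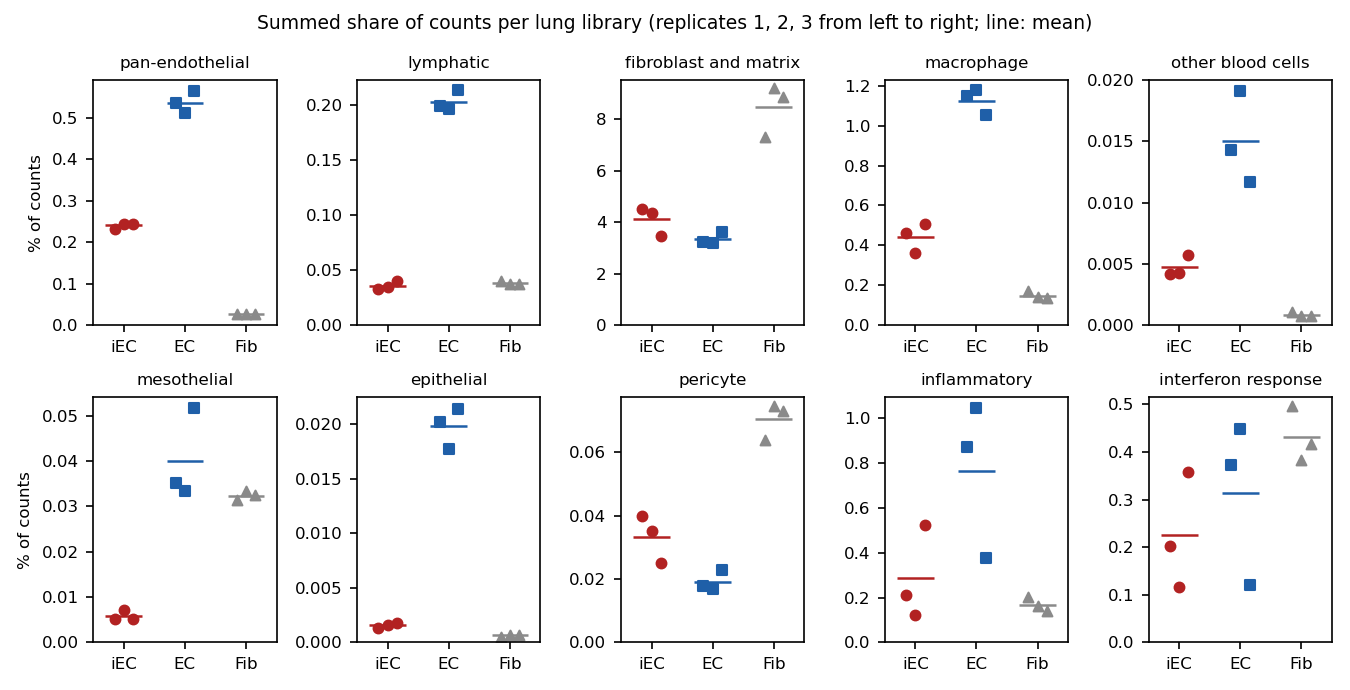
Summed share of counts (%) of 10 marker lists in each lung iEC, lung EC and lung fibroblast (Fib) library, with points for replicates 1 to 3 from left to right and a line at the mean. Pan-endothelial, lymphatic, macrophage, mesothelial and epithelial shares are lower in every lung iEC library than in every lung EC library. The inflammatory and interferon shares of these 2 groups overlap, with replicate 3 of lung iECs and of lung ECs apart from the other replicates.

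The difference between iECs and ECs was not the same in lung and heart. The difference of differences, lung iEC over lung EC minus heart iEC over heart EC, was called in 26% of genes. It was above 0 in 2049 (13.8%) and below 0 in 1815 (12.2%), where below 0 means that iECs stood lower against their ECs in the lung than in the heart, whatever the size of each change. Of 28 pan-endothelial genes 21 had a called difference below 0 and 2 above 0, with a median of −1.54. Both sides of this comparison differed between organs. Together the 28 genes held means of 0.241% of counts in lung iECs and 0.328% in heart iECs, against 0.537% in lung ECs and 0.382% in heart ECs. Pecam1 fell by 6.30 in the lung and by 1.69 in the heart on the log2 scale (difference −4.61 ± 0.134, edgeR adjusted p = 1.5e-13), and Tie1 was at −1.51 ± 0.0937 in the lung and 0.02 in the heart (difference −1.53 ± 0.13, edgeR adjusted p = 9.36e-08). Among 19 arterial genes 11 differences were below 0 and 3 above 0. Gja5 was higher by 4.24 in the lung and 6.06 in the heart (difference −1.82 ± 0.283, edgeR adjusted p = 0.000172), and Dll4 was lower in lung iECs but higher in heart iECs, at −1.85 ± 0.133 and 2.72 (difference −4.57 ± 0.189, edgeR adjusted p = 1.38e-11). Sox17 itself was higher by 5.06 in the lung and by 6.09 in the heart (difference −1.04 ± 0.19, edgeR adjusted p = 0.000525), with means of 475 and 466 CPM in lung iECs and heart iECs, against 14.2 and 6.81 CPM in lung ECs and heart ECs. Among 11 lymphatic genes 7 were below 0 and none above 0, and among 12 tip cell genes 9 were below 0 and 1 above 0, with Esm1 at −3.84 ± 0.197 in the lung and 1.05 in the heart (difference −4.89 ± 0.278, edgeR adjusted p = 1.88e-09). Differences above 0 were called in 9 of 18 inflammatory, 14 of 34 fibroblast and matrix and 13 of 20 mitosis genes, and differences below 0 in 1, 4 and 0 of them. Among 20 macrophage genes 16 differences were below 0 and 1 above 0. Their share of counts in heart cultures was 0.0421% in heart iECs and 0.0384% in heart ECs (means), against the higher lung shares above. The part of macrophages in the difference between organs was not tested.

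**Figure D5:**
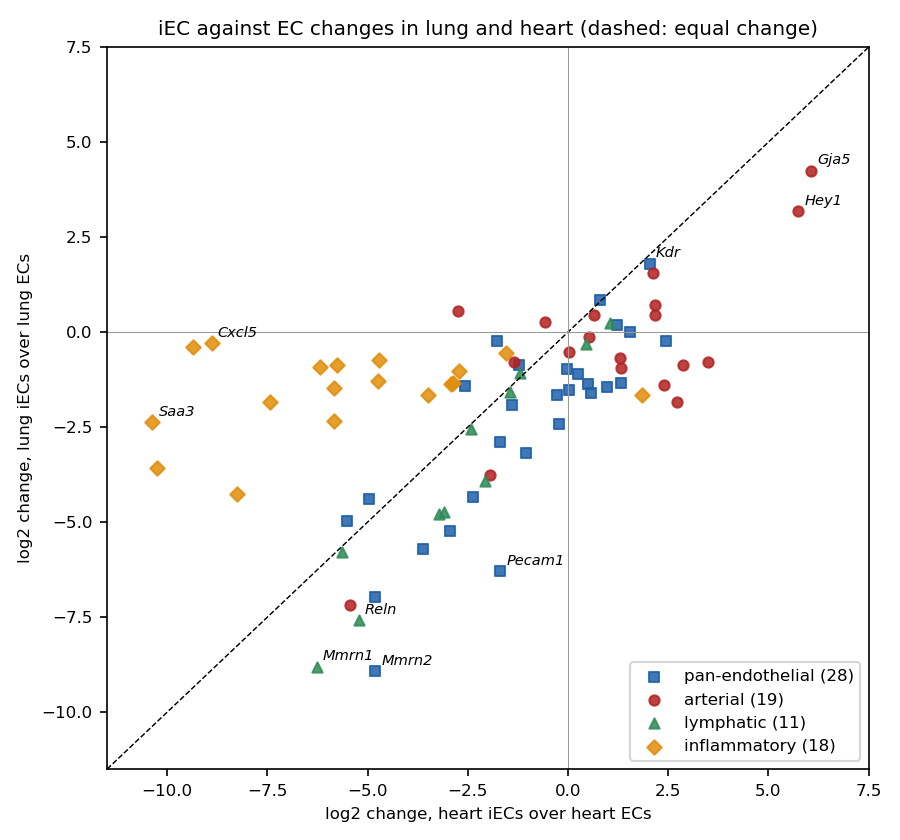
Log2 change of heart iECs over heart ECs (horizontal) against that of lung iECs over lung ECs (vertical) for tested genes of 4 lists, 1 point per gene, with numbers of genes in parentheses and a dashed line at equal change. Most pan-endothelial, arterial and lymphatic points lie below the line, and most inflammatory points lie above it.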

How the data were processed

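Per the labels' protocols, column-purified RNA went to a company that made and sequenced mRNA libraries. The deposited table holds estimated counts per Ensembl gene ID, all whole numbers, so nothing was rounded. The submitters' processing notes name Salmon, DESeq2 and mm10, without versions, and how transcripts were summed to genes is not given in the sources used here. Counting by shared sequence can divide reads among near copies, overlapping genes and antisense partners. Of 35727 IDs 35422 had a symbol in GENCODE M21 (GRCm38), and the rest held 0.0532% of counts. The 18 libraries held 17747632 to 23775372 counts.

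Groups followed the labels. Genes were filtered with filterByExpr over 6 groups, which left 14864 with 99.97% of counts. The counts of all 18 libraries were scaled by TMM and tested with edgeR 4.0.16 (robust quasi-likelihood test, group as the only term) in R 4.3.3 with Benjamini-Hochberg adjustment at 0.05. For each gene all groups shared 1 estimate of the spread. The common biological coefficient of variation over all tested genes, a summary value, was 0.135. CPM are counts per 1000000 of the scaled library size. Log2 changes are edgeR's, which adds a small prior count. The ± values follow from each change and its test statistic, and can understate counting error where counts are few. Where a group held 1 to 3 counts, a ratio with an exact Clopper-Pearson interval stands in place of a fold, and where it held 0, a bound against 3 counts over the group. Such intervals and floors cover counting error only. Shares of counts were compared by exact two-sided permutation over 20 assignments. Counts of lung iECs and lung ECs were also simulated with a small part of the genes changed. In these counts the test found 34 of 67 genes changed 1.5-fold, 51 of 67 changed 2-fold and 65 of 66 changed 4-fold. It called 9 unchanged genes. Far fewer genes changed there than were called here, which made the adjusted threshold stricter, so these rates do not carry over.

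Named genes were, by rule, the 10 largest called changes in each direction at 10 CPM or more in the higher group, the 6 largest in CPM, up to 5 called members of each of 37 lists (527 of 551 genes tested) at 5 CPM or more, Sox17, Erg and defining markers. Other list members are given as values. Some genes that meet the rule are not reported here. The comparison and its lists were chosen with earlier results of these data known. DESeq2 1.42.0, DESeq2's size factors (RLE scaling), other filters, fits on only the groups compared, a replicate block, a test against a log2 change of 1 and leaving out libraries were tried. Heart fibroblasts entered the fit and are not described.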

Additional observations from a re-analysis of the deposited data

Results flagged for a closer look

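The change of iECs against their native ECs differed between lung and heart, by a test of the difference itself, with a signed difference, lung log2 change minus heart log2 change, above 0 for 2049 genes and below 0 for 1815. The genes below are those among the largest differences that kept their call with any 1 library left out. Each is given as that difference with its approximate standard error, obtained as above, and edgeR adjusted p. Their explanations were not tested.

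Tal1 differed by −7.03 ± 0.673 (edgeR adjusted p = 3.89e-07). It was lower in iECs of both organs, but the lung value rests on 1 count over the lung iEC libraries. The ± value of this difference is therefore smaller than counting error alone. The homeobox gene Meox1 differed by −6.70 ± 0.386 (edgeR adjusted p = 8.04e-10), with a log2 change of −6.13 in the lung and of 0.57 in the heart, where it was not called (edgeR adjusted p = 0.052). Slc26a7, an anion exchanger, differed by −8.58 ± 0.633 (edgeR adjusted p = 1.62e-08), at −1.94 in the lung and 6.64 in the heart. Arg1, arginase, differed by −7.21 ± 1.54 (edgeR adjusted p = 0.0031), with −3.18 in the lung. In the heart it held 26 counts in iECs against 1 in ECs and was not called (edgeR adjusted p = 0.0643), so the size of this difference rests on 1 count. Slc26a7 held 988 counts in heart iECs against 8 in heart ECs, and Serpina3c 44 counts in lung iECs against 6 in lung ECs.

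Differences in the other direction were found for Cxcl5 at 8.60 ± 1.84 (edgeR adjusted p = 0.00406) and Saa3 at 8.0 ± 1.8 (edgeR adjusted p = 0.00568). Both fell in heart iECs, by 8.89 and 10.37, while in the lung, where replicates 3 stood apart, they were at −0.29 and −2.37 and not called. Serpina3c, a protease inhibitor with near copies in its family, differed by 7.14 ± 0.586 (edgeR adjusted p = 6.01e-08), with 2.87 in the lung and −4.27 in the heart.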

How the results depend on the processing

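Counts of genes called stayed within 1.5 times under DESeq2 (3328 genes higher and 3612 lower against lung ECs), RLE scaling (3240 and 3497), no filter (3059 and 3237), at least 5 CPM in 3 libraries (2859 and 2964) and fits on only the groups compared (2896 and 2793). Tested against a log2 change of 1, which by construction calls fewer genes, 696 were higher and 698 lower than in lung ECs, 1109 higher and 697 lower than in lung fibroblasts, and the difference between lung and heart was above 0 for 415 and below 0 for 299. Leaving out 1 library gave 2805 to 3350 higher and 2849 to 3509 lower genes against lung ECs. Leaving out lung iEC 3 and lung EC 3 together, an alternative chosen after seeing the data, left 22 of 28 pan-endothelial genes lower and 2 higher, 8 lymphatic genes lower, 23 matrix genes higher and 6 lower, and 14 macrophage genes lower. Among lists that it moved by over 1.5 times, 18 of 18 inflammatory genes were lower (4 with all libraries), 16 of 16 interferon genes (0), 10 of 10 MHC class I genes (4) and 2 of 20 DNA replication genes (11), while 8 of 14 cholesterol genes (2) and 11 of 19 Wnt genes (7) were higher. These 2 libraries were chosen by their correlation over all tested genes, to which such genes contribute. Of values for single genes and lists, 6745 kept direction and side of the threshold, 315 lost the call, 2 gained it, 120 moved and 1 reversed: Cspg4, not called, was at −0.0457 without lung iEC replicate 1 and at 0.479, called, without lung iEC replicate 3, against 0.22. The labels number replicates alike and state no pairing. Deviations from the group means correlated at 0.0074, −0.495 and −0.592 for equal numbers. With 3 libraries a group, and those numbered 3 apart, these values cannot decide whether equal numbers share a source. With a replicate block 3215 genes were higher and 3293 lower. With 3 libraries a group, 1.5-fold changes were often missed on simulated counts, in which far fewer genes changed than were called here.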
